A study of Homo sapiens with 8 samples.

Results

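The E2F transcription factors and their DP partners were followed through 4 states of HCT-116, a cell line from a human colorectal carcinoma. The genes are E2F1 to E2F8, TFDP1 and TFDP2, and every non-control probe that carries one of these names in the scanner files was taken. This gave 15 of the 50599 probes on the array, which represent 10 genes, and all 15 were among the 28677 probes tested, from which 15317 named genes could be compared. E2F3, E2F7 and TFDP1 each have 2 probes and E2F6 has 3, and the single E2F1 probe is printed in 10 spots per array. All 15 probes gave a signal well above background on each of the 8 arrays. Where a gene has several probes, the probe with the highest mean over the arrays stands for it unless another is named.

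RNA was taken in duplicate from parental cells in exponential growth without inhibitor (WT), from the same cells after 24 h in 20 µM NU6102 (WT+NU6102), from untreated cells in which CDK2 was knocked out (CDK2-/-), and from R50 cells, which had been grown in 50 µM NU6102 from the start of their selection and were kept in it. NU6102 is a purine inhibitor of CDK1 and CDK2. The parental and CDK2-/- lines were purchased, and the sources used here do not say whether each is a single clone. In R50 cells the effect of selection and that of the inhibitor still present cannot be told apart. Each of the 8 RNAs was labelled with Cy3 and hybridized to an array of its own, and the 2 arrays of a group are described as biological replicates.

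The WT and WT+NU6102 arrays lay on slide 2 and the CDK2-/- and R50 arrays on slide 1. Treated and untreated WT cells can thus be compared within a slide, as can R50 and CDK2-/- cells. Slide and group cannot be told apart elsewhere. Values are log2 signals minus the 75th percentile of the array, so that 0 is the level of that percentile, and they are compared only within a probe. Each array had from 32376 to 36206 spots clearly over background. Of 9 epithelial markers, 8 were detected in this sense on every array and VIL1 on 0. Of 8 markers of blood, stromal and endothelial cells, 4 (PTPRC, COL1A1, ACTA2 and VWF) were detected on every array, at signals between -3.69 and -0.66, and COL3A1 on 0. Their part in the results was not tested. The CDK2 probe was lower in CDK2-/- than in WT cells, by 1.72-fold (log2 difference -0.78, limma adjusted p = 0.000271), and stayed above background. Whether it lies in the deleted part of the gene is not given in the sources used here.

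E2F proteins bind DNA as partners of a DP protein, TFDP1 or TFDP2, and control the genes a cell needs to enter and pass through S phase. E2F1, E2F2 and E2F3 activate these genes. They are held inactive by the pocket protein RB1 until cyclin-dependent kinases phosphorylate it. E2F4 and E2F5 act mainly as repressors together with the pocket proteins RBL1 and RBL2, and E2F6 represses without a pocket protein, in a Polycomb complex. E2F7 and E2F8 are atypical members that repress E2F targets without a DP partner. Several of these genes are themselves E2F targets.

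The sequence that an E2F-DP dimer is known to prefer was looked for in front of the genes, because E2F control of E2F genes is part of how the family works. Promoter sequences came from RefSeq (GRCh38.p14), which gave 11 windows for 8 of the 10 genes. There was none for E2F5 and E2F8. The 250 bases before each transcription start were searched on both strands for the 4 words TTTCCCGC, TTTGGCGC, TTTCGCGC and TTTGCCGC. They stood in 4 of the 11 windows, at E2F1, E2F2, E2F3 and TFDP1, and in 979 of all 35116 windows in the table (2.79%). E2F1 holds 2 words, which begin 33 and 20 bases before the start, and 0.122% of all windows hold 2 or more. The word begins 42 bases before the start in E2F2, 53 in the first of the 2 E2F3 windows and 120 in TFDP1. The second E2F3 window, the windows of E2F4, E2F6 and E2F7 and the 3 windows of TFDP2 hold none of these letters. A match in the letters describes the sequence and does not show binding. The last 150 bases before the start are shown for the 4 windows with a word, on the strand of the gene and 5′ to 3′, with the words in capitals. They are chr20:33686386-33686535 on the minus strand for E2F1, chr1:23531234-23531383 on the minus strand for E2F2, chr6:20401729-20401878 on the plus strand for E2F3 and chr13:113584603-113584752 on the plus strand for TFDP1.
E2F1: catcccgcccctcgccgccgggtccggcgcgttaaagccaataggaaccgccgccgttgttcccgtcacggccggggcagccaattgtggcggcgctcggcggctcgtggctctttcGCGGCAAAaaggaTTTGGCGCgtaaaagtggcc
E2F2: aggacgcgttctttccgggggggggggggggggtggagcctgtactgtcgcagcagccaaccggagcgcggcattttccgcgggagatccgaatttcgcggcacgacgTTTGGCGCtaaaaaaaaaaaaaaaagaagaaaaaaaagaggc
E2F3: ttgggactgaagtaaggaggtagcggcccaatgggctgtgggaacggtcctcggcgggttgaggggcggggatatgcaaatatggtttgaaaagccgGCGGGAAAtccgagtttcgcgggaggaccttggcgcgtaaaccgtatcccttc
TFDP1: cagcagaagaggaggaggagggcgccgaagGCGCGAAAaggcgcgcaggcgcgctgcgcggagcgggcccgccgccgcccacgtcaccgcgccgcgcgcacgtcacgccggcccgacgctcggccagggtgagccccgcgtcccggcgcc

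After 24 h of NU6102, 7 of the 10 genes differed from WT cells, 6 higher and TFDP2 lower. The share over all genes in this comparison was 53.1%. The 6 that rose were the 3 activators E2F1, E2F2 and E2F3 and the repressors E2F5, E2F6 and E2F7, by between 1.17-fold for E2F1 and 1.46-fold for E2F6. The median log2 difference was 0.31 over the 10 genes and 0.04 over all genes. In RNA from whole cultures, a change in the share of cells that make an RNA and a change in the RNA per cell cannot be told apart. Counted by probe, 10 of 15 differed, against 44.7% of all probes, and the groups did not overlap for 12 of 15, against 74.0%.

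In CDK2-/- cells 3 of the 10 genes differed from WT, against 36.0% of all genes. E2F2 was higher, and E2F1 and TFDP2 were lower. In R50 cells 3 of 10 differed, against 27.6%, and E2F2, TFDP1 and TFDP2 were all lower. These 3 calls were sensitive to leaving out an array, also a CDK2-/- array, which leaves the log2 difference from WT as it was. With any 1 of the 8 arrays left out, between 0 and 1 of the 10 genes differed, and after quantile normalization 0 did. R50 cells differed from CDK2-/- cells in E2F2 and E2F8, both lower in R50, against 40.9% of all genes. By probe, 3 of 15 differed in CDK2-/- cells (31.1% of all probes), 4 of 15 in R50 cells (22.6%) and 2 of 15 between R50 and CDK2-/- cells (34.4%). The counts in this paragraph are near or below the share over all features. Those of treated cells are above it, but with 10 genes and 15 probes they are not read as a result about the members. No member changed by 1 or more on the log2 scale in any comparison. The 3 comparisons with WT share the same 2 WT arrays, so their values are set side by side and not counted as separate evidence.

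**Figure D1:**
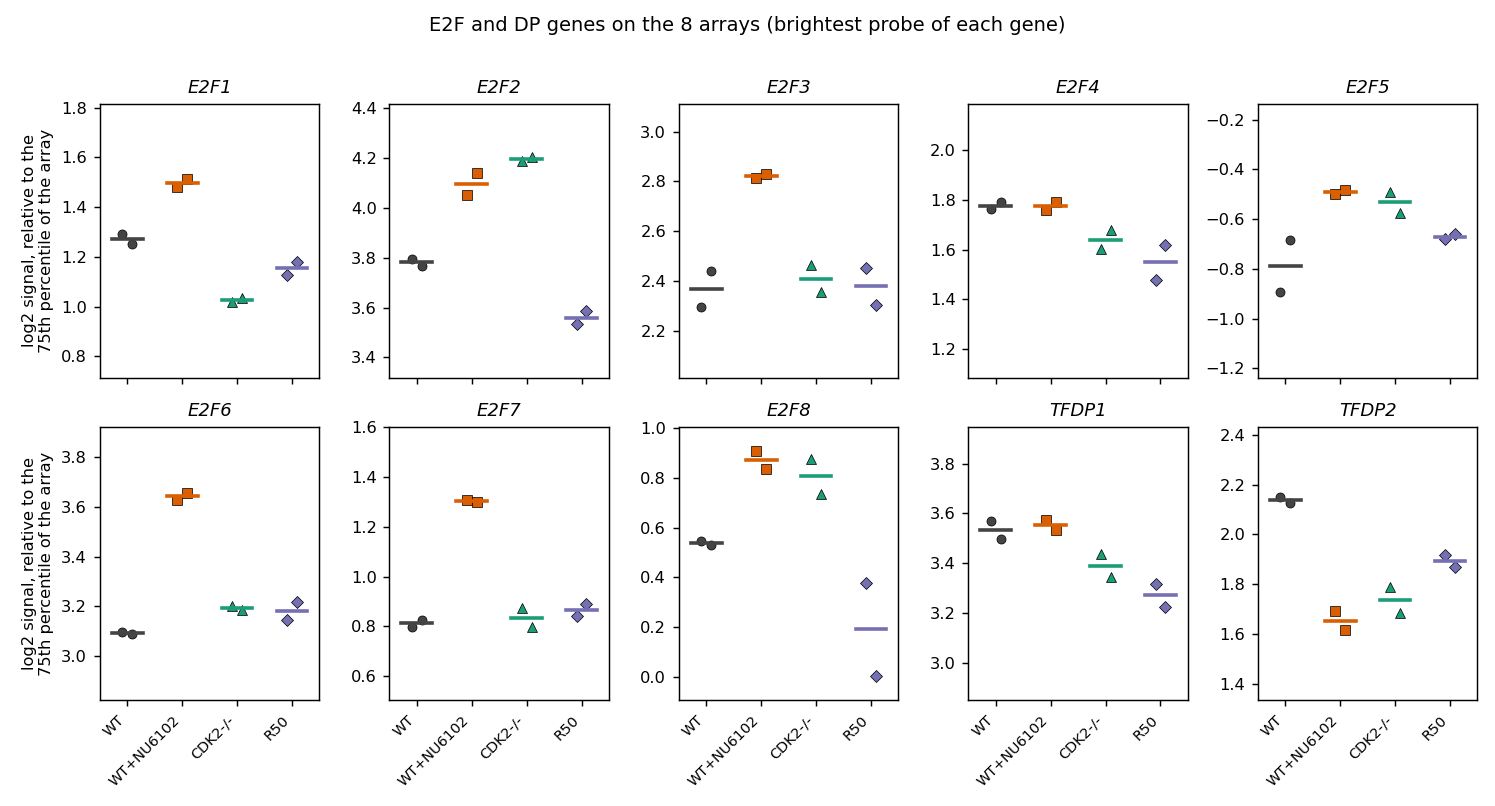
Log2 signal relative to the 75th percentile of the array (vertical axis, 1.1 log2 units in every panel) for the 10 genes in WT, WT+NU6102, CDK2-/- and R50 cells. Each point is 1 array and each bar the mean of 2. The WT+NU6102 mean is the highest of the 4 in 8 of the 10 genes. E2F2 is highest in CDK2-/- and TFDP2 in WT cells. The 8 include E2F4 and TFDP1, with log2 differences from WT of 0.00 and 0.02, and E2F8, none of which passed the test. The share over all genes was not computed.

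E2F1 is an activator that can also drive apoptosis genes. Its probe lies on chromosome 20 from 32263989 to 32264048 (hg19, minus strand), at position 1943 of its transcript. The signals were 1.29 and 1.25 in WT, 1.48 and 1.51 in WT+NU6102, 1.02 and 1.03 in CDK2-/- and 1.13 and 1.18 in R50 cells. The 4 groups did not overlap, and the treated cells were highest and the knockout cells lowest. E2F1 rose 1.17-fold with NU6102 (log2 difference 0.22, SE 0.05, limma adjusted p = 0.0122). In CDK2-/- cells it was lower than in WT, by 1.19-fold (log2 difference -0.25, SE 0.05, adjusted p = 0.0134). Knockout and treated cells thus stood on opposite sides of WT, 1.39-fold apart (log2 difference -0.47, adjusted p = 0.000572). R50 cells lay between WT and CDK2-/-, without a difference that passed the test from either (adjusted p = 0.133 and 0.0895). The WT+NU6102 call was lost after quantile normalization (log2 difference 0.13, adjusted p = 0.0861), without WT replicate 2 (0.062) and without WT+NU6102 replicate 2 (0.0637). The CDK2-/- call was lost without WT replicate 1 (0.0706) and without either CDK2-/- array (0.0684 and 0.0612).

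E2F2, an activator closely related to E2F1, had the widest range of group means among the activators. The probe lies on chromosome 1 from 23832933 to 23832992 (hg19, minus strand). The signals were 3.79 and 3.77 in WT, 4.05 and 4.14 in WT+NU6102, 4.19 and 4.20 in CDK2-/- and 3.53 and 3.58 in R50 cells. All 4 groups were apart, in the order CDK2-/-, WT+NU6102, WT and R50. CDK2-/- and WT+NU6102 were the neighbours that did not differ beyond the spread (log2 difference 0.10, 95% interval -0.03 to 0.23, adjusted p = 0.169). E2F2 rose 1.25-fold with NU6102 (log2 difference 0.32, adjusted p = 0.00502) and was 1.33-fold higher in CDK2-/- than in WT cells (log2 difference 0.41, adjusted p = 0.00339). In R50 cells it was 1.17-fold lower than in WT (log2 difference -0.22, adjusted p = 0.0345). Against CDK2-/- cells, on the same slide, R50 cells had 1.56-fold less E2F2 (log2 difference -0.64, SE 0.05, adjusted p = 0.000719). This call was kept in all 19 other settings without a stricter threshold. The stricter thresholds, left out of such counts for single genes, were an adjusted p under 0.01 and a minimum log2 change of 1. The difference between R50 and WT lost its call in 9 of 18 settings of this kind. Without 1 array of WT, CDK2-/- or R50 its adjusted p lay between 0.0675 and 0.136, and after quantile normalization it was 0.0932.

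E2F3, the remaining activator, differed between treated cells and the others. The probe with the higher signal lies at position 4908 of the transcript on chromosome 6, from 20493845 to 20493904 (hg19, plus strand). The signals were 2.29 and 2.44 in WT, 2.81 and 2.83 in WT+NU6102, 2.46 and 2.36 in CDK2-/- and 2.45 and 2.31 in R50 cells. Both treated arrays were above all others, and the other 3 groups overlapped. E2F3 rose 1.37-fold with NU6102 (log2 difference 0.45, SE 0.08, adjusted p = 0.00666). For CDK2-/- against WT the log2 difference was 0.04 with a 95% interval from -0.16 to 0.25, and for R50 against WT it was 0.01 with an interval from -0.19 to 0.21. The second probe, at position 1665 (chromosome 6 from 20490602 to 20490661), gave 1.32-fold more in treated than in WT cells (log2 difference 0.40, adjusted p = 0.0069). Its R50 arrays read -0.23 and -0.13, below WT (0.03 and -0.02) and CDK2-/- cells (-0.03 and 0.05), and neither difference was called. This probe ends on the stop codon of the coding sequence, in capitals here.
E2F3 coding probe: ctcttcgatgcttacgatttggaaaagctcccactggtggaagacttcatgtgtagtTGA

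E2F4, which binds pocket proteins in resting cells, showed no difference past the test between treated and untreated WT cells. Its probe spans an exon junction on chromosome 16 between 67231510 and 67231789 (hg19, plus strand). The signals were 1.76 and 1.79 in WT, 1.76 and 1.79 in WT+NU6102, 1.6 and 1.68 in CDK2-/- and 1.48 and 1.62 in R50 cells. The WT and treated arrays interleaved, and the CDK2-/- and R50 arrays lay below them and overlapped each other. The log2 difference between WT+NU6102 and WT was 0.00 (95% interval -0.16 to 0.16). Against WT it was -0.14 in CDK2-/- (adjusted p = 0.169) and -0.23 for R50 (adjusted p = 0.0565), and neither passed. The R50 value passed in 4 other settings, with adjusted p from 0.0119 to 0.0489.

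E2F5, the other pocket protein partner, lies on chromosome 8. Its signals were -0.89 and -0.68 in WT, -0.50 and -0.48 in WT+NU6102, -0.49 and -0.57 in CDK2-/- and -0.68 and -0.66 in R50 cells. The 2 WT arrays differed from each other more than those of any other group. The arrays of all other groups were above both, those of R50 only narrowly above the higher one. E2F5 rose 1.23-fold with NU6102 (log2 difference 0.30, SE 0.08, adjusted p = 0.0281). The call was lost in a fit of the 4 arrays of the slide (adjusted p = 0.0806), without WT replicate 1 (log2 difference 0.19, adjusted p = 0.0865) and without either treated array (0.0881 and 0.105). Its log2 difference from WT was 0.26 for the knockout (adjusted p = 0.0605) and 0.12 for R50 (adjusted p = 0.346), and the first of these passed in 4 other settings, with adjusted p from 0.0276 to 0.0435.

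E2F6, the Polycomb-linked repressor, showed the largest rise of the 10 genes with NU6102. Its brightest probe lies at position 2157 of the transcript, on chromosome 2 from 11585524 to 11585583 (hg19, minus strand). The signals were 3.10 and 3.09 in WT, 3.63 and 3.66 in WT+NU6102, 3.20 and 3.19 in CDK2-/- and 3.15 and 3.22 in R50 cells. The treated arrays stood apart from the other 6. E2F6 rose 1.46-fold (log2 difference 0.55, SE 0.05, adjusted p = 0.000572), and the call was kept in all 19 other settings without a stricter threshold. CDK2-/- and R50 cells had log2 differences from WT of 0.10 and 0.09 (adjusted p = 0.177 and 0.243). At the other probes of E2F6 the CDK2-/- values were of opposite sign, -0.08 and -0.12 (adjusted p = 0.3 and 0.352).

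Of the 3 probes of E2F6, 2 passed the test in treated cells and 1 did not. The probe at position 1220 (chromosome 2 from 11586461 to 11586520) read 1.04 and 1.02 in WT and 1.52 and 1.51 in treated cells, a rise of 1.40-fold (log2 difference 0.49, adjusted p = 0.000908). The probe nearest the 5′ end, at position 339 (chromosome 2 from 11605899 to 11605958), read -0.43 and -0.51 in WT and -0.48 and -0.35 in treated cells. These groups overlapped, and the log2 difference was 0.06 with a 95% interval from -0.17 to 0.28. That interval does not reach the estimates of the other probes, although the difference between probes was not itself tested. The 5′ probe has a GC content of 70.0%, the highest of the 15 (35.0% to 70.0%), and the role of base composition was not tested. It read -0.84 and -0.65 in R50 cells, a log2 difference of -0.28 from WT that did not pass the test (adjusted p = 0.0801). Its sequence is given because its call differs from those of the other E2F6 probes.
E2F6 probe at position 339: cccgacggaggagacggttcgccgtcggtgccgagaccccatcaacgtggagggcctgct

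**Figure D2:**
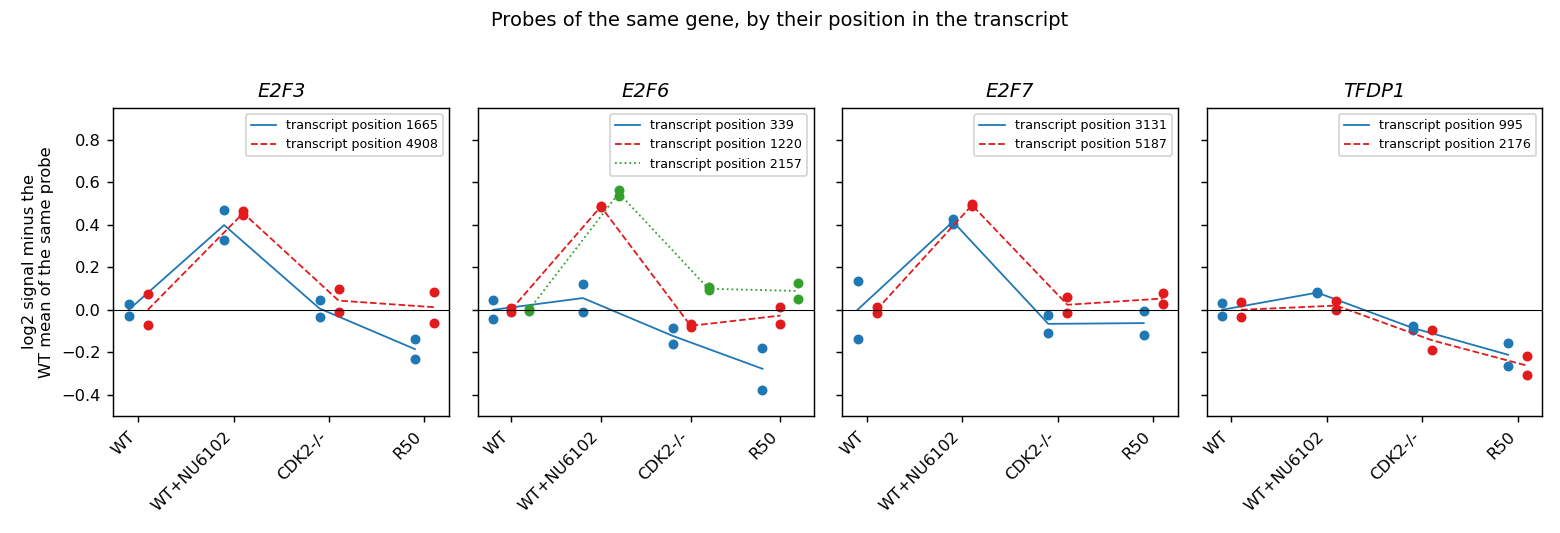
Log2 signal minus the WT mean of the same probe (vertical axis) in the 4 groups, for the 4 genes with several probes. Points are arrays and lines join group means, and the E2F6 probe at position 339 stays near 0 in WT+NU6102 cells (0.06) where the probes at 1220 and 2157 rise by 0.49 and 0.55.

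E2F7, an atypical repressor, rose to nearly the same extent as E2F6. The probe with the higher signal lies at position 5187 of the transcript, on chromosome 12 from 77415520 to 77415579 (hg19, minus strand). The signals were 0.80 and 0.83 in WT, 1.31 and 1.30 in WT+NU6102, 0.87 and 0.80 in CDK2-/- and 0.84 and 0.89 in R50 cells. The treated arrays were above the other 6, which lay close together. E2F7 rose 1.41-fold with NU6102 (log2 difference 0.49, SE 0.05, adjusted p = 0.000963), a call kept in all 19 other settings without a stricter threshold. The second probe, at position 3131, gave 1.33-fold (log2 difference 0.41, adjusted p = 0.0206). Neither CDK2-/- (log2 difference 0.02, 95% interval -0.10 to 0.15) nor R50 (0.05, interval -0.07 to 0.18) differed from WT by more than the spread.

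E2F8, the other atypical repressor, had the widest range of group means among the repressors. Its probe lies on chromosome 11 from 19245675 to 19245734 (hg19, minus strand). The signals were 0.55 and 0.53 in WT, 0.91 and 0.83 in WT+NU6102, 0.88 and 0.74 in CDK2-/- and 0.38 and 0.00 in R50 cells. The treated and knockout arrays overlapped above WT, and the R50 arrays lay below it with the largest gap between duplicates of any member (SD 0.26, n = 2). No difference from WT passed the test, with log2 values of 0.33 in WT+NU6102 (adjusted p = 0.0858), 0.27 in CDK2-/- (0.173) and -0.35 in R50 cells (0.115). Without R50 replicate 1 the R50 value was -0.53 (adjusted p = 0.0312), and without either R50 array the WT+NU6102 value had an adjusted p of 0.0183 and the CDK2-/- value one of 0.0468. R50 cells had 1.53-fold less E2F8 than CDK2-/- cells (log2 difference -0.61, SE 0.13, adjusted p = 0.0162) and less than WT+NU6102 cells as well (log2 difference -0.68, adjusted p = 0.00664). The call against CDK2-/- was lost without CDK2-/- replicate 1 (log2 difference -0.54, adjusted p = 0.0816) and in a fit of the 4 arrays of the slide (adjusted p = 0.0698).

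TFDP1, a dimer partner of the E2F proteins, showed no difference past the test in treated cells, where the activators rose. Its brightest probe lies at position 2176 of the transcript, on chromosome 13 from 114295314 to 114295373 (hg19, plus strand). The signals were 3.57 and 3.50 in WT, 3.57 and 3.53 in WT+NU6102, 3.44 and 3.34 in CDK2-/- and 3.31 and 3.23 in R50 cells. WT and treated arrays overlapped, and both R50 arrays were below the other 6. The log2 difference between WT+NU6102 and WT was 0.02 (95% interval -0.13 to 0.17). In R50 cells TFDP1 was 1.20-fold lower than in WT (log2 difference -0.26, adjusted p = 0.0345), and the probe at position 995 gave 1.16-fold (log2 difference -0.21, adjusted p = 0.047). Leaving out any 1 of the 8 arrays ended the call of the brightest probe, with adjusted p between 0.0537 and 0.145, and so did quantile normalization (0.0769). The CDK2-/- value was -0.14 (adjusted p = 0.14).

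TFDP2, the second DP partner, was the only member that fell with NU6102. Its probe lies on chromosome 3 from 141671355 to 141671414 (hg19, minus strand) and ends on the stop codon, in capitals here.
TFDP2 probe: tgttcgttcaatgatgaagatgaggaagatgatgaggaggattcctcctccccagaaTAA

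The TFDP2 signals were 2.15 and 2.12 in WT, 1.69 and 1.62 in WT+NU6102, 1.79 and 1.69 in CDK2-/- and 1.92 and 1.87 in R50 cells. WT was above every other group, and the treated and knockout arrays overlapped. TFDP2 fell 1.40-fold with NU6102 (log2 difference -0.48, SE 0.06, adjusted p = 0.00163), a call kept in all 19 other settings without a stricter threshold. It was 1.32-fold lower in CDK2-/- than in WT cells (log2 difference -0.40, SE 0.06, adjusted p = 0.00549). In R50 cells it was 1.18-fold lower (log2 difference -0.24, adjusted p = 0.0366). That call was lost without any 1 of the 8 arrays, with adjusted p between 0.0516 and 0.141, and after quantile normalization (0.061). CDK2-/- and WT+NU6102 did not differ beyond the spread (log2 difference 0.08, 95% interval -0.06 to 0.23). R50 was 1.18-fold above WT+NU6102 (log2 difference 0.24, adjusted p = 0.0175), a call kept in 14 of 18 other settings without a stricter threshold.

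**Figure D3:**
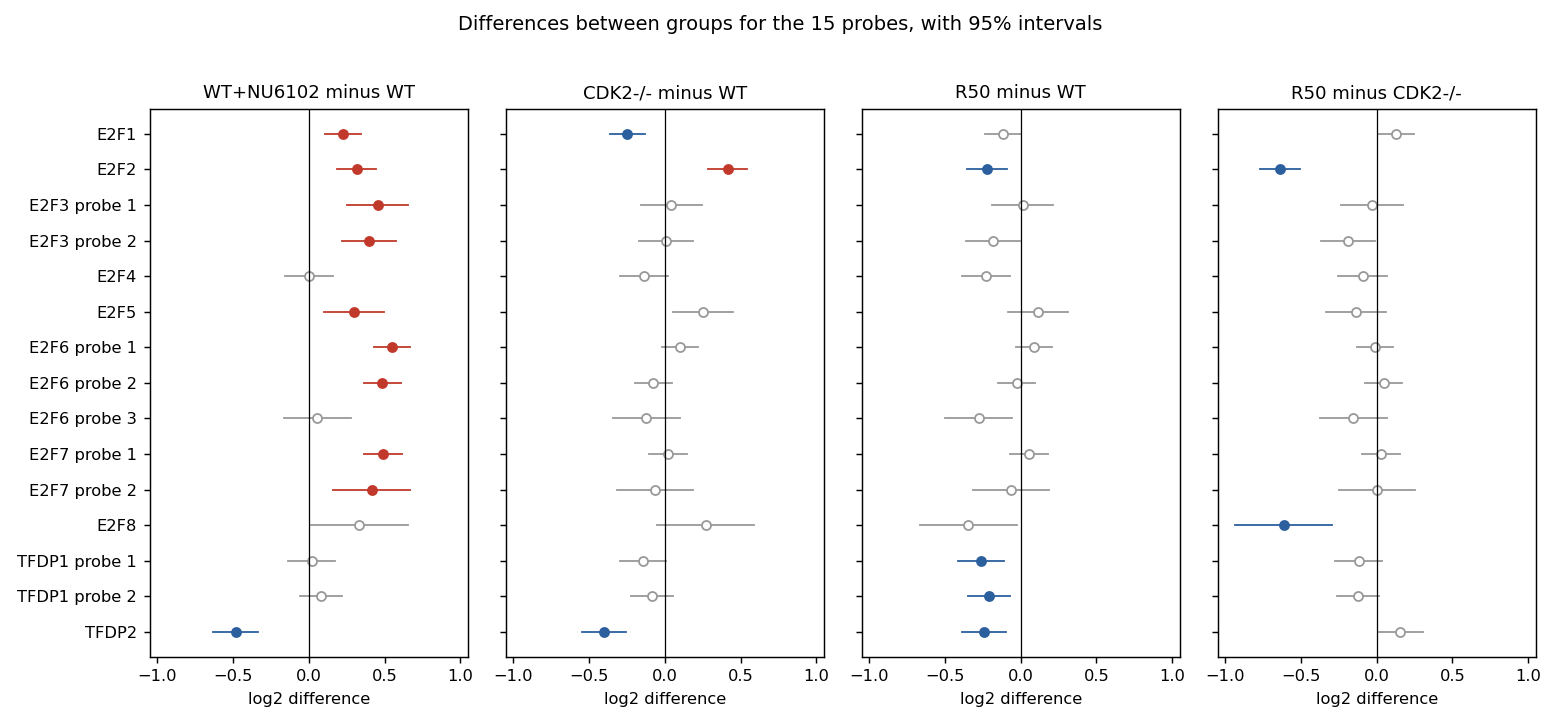
Log2 differences between groups (horizontal axis) for the 15 probes, with 95% intervals from limma. Filled points passed an adjusted p of 0.05 over all 28677 probes, red higher and blue lower, open grey points did not, and where a gene has several probes, probe 1 is the brightest. Treated cells show 9 probes higher and 1 lower, CDK2-/- cells 1 and 2, R50 cells 0 and 4, and R50 against CDK2-/- 0 and 2.

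R50 cells, kept in 50 µM inhibitor, were also set against WT cells given 20 µM for 24 h. The doses and times differ, and so do the slides. Here 9 of the 10 genes differed, against 60.0% of all genes, with TFDP2 higher in R50 and the other 8 lower. E2F2 (1.45-fold), E2F6 (1.38-fold) and E2F7 (1.36-fold) were among those lower in R50, and E2F5 was the gene that did not pass (log2 difference -0.18, adjusted p = 0.112). E2F4, 1.17-fold lower (log2 difference -0.23, adjusted p = 0.029), kept its call in 9 of 18 other settings without a stricter threshold. TFDP1 kept its call in 13 of these, TFDP2 in 14, E2F8 in 16 and E2F3 in 17. E2F1, E2F2, E2F6 and E2F7 kept theirs in all 18. After quantile normalization the TFDP1 log2 difference was -0.07 (adjusted p = 0.44). Leaving out each array gave between 7 and 9 genes. CDK2-/- cells set against WT+NU6102 cells had 4 lower genes, E2F1, E2F3, E2F6 and E2F7, against 60.5% of all genes called in either direction. Among the 4 groups as a whole, E2F2 (adjusted p = 0.000643) and E2F6 (adjusted p = 0.00083) passed limma's F-test at 0.001, 2 of 10 genes against 27.4% of all genes. With any 1 array left out, 0 passed.

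The pocket proteins and the MuvB complex repress genes together with E2F4 and E2F5. Their list also holds MYBL2 and FOXM1, transcription factor genes that encode neither a pocket protein nor a MuvB subunit. It gave 6 higher and 1 lower of 10 genes in treated cells, 70.0% against 53.1% of all genes. The largest rise was that of MYBL2 (1.65-fold, log2 difference 0.73, adjusted p = 0.00118). RBL2 (p130) fell there while RBL1 (p107) rose. RBL2 read -0.58 and -0.68 in WT and -1.58 and -1.74 in WT+NU6102 cells, a fall of 2.04-fold (log2 difference -1.03, SE 0.10, adjusted p = 0.000724). RBL1 read -0.05 and -0.10 in WT and 0.58 and 0.55 in WT+NU6102 cells, a rise of 1.56-fold (log2 difference 0.64, adjusted p = 0.00106). With the mean of all RBL1 probes the difference was 0.40 and still passed the test. In CDK2-/- cells 4 were higher and 1 lower, 50.0% against 36.0%. They include the MuvB subunit LIN9 (2.33-fold, log2 difference 1.22, adjusted p = 0.000384) and RB1 (1.82-fold, log2 difference 0.86, adjusted p = 0.000456). The mean of all LIN9 probes gave a log2 difference of 0.65, below that of RB1. In R50 cells 1 was higher and 2 lower, 30.0% against 27.6%, which is near the share over all genes. RB1 was the higher one (1.51-fold, log2 difference 0.60, adjusted p = 0.00283), and LIN9 and RBL1 were the lower ones. With 1 array left out, LIN9 lost that call in 6 of 8 fits and RBL1 in 7 of 8. Over the whole list, leaving out 1 array gave between 4 and 7 called genes in treated cells, lowest without WT replicate 1 or either treated array. It gave 2 to 5 in CDK2-/- cells, lowest without WT replicate 1 or CDK2-/- replicate 1, and 1 to 2 in R50 cells.

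The kinases and inhibitors upstream were measured for 15 of 17 genes, since CCND2 and CCNA1 did not pass the filter on dim probes. In treated cells 9 were higher and 3 lower, 80.0% of those tested against 53.1% of all genes. In CDK2-/- cells 3 were higher and 5 lower, 53.3% against 36.0%, and in R50 cells also 3 and 5, 53.3% against 27.6%. CDK6, which phosphorylates RB1 with a D cyclin, rose 2.59-fold in treated cells (log2 difference 1.37, adjusted p = 8.7e-05) and was 3.05-fold higher in R50 cells (log2 difference 1.61, adjusted p = 0.000114). No E2F or DP gene was called higher in R50 than in WT cells. With 1 array left out there were 3 to 7 called genes for R50, lowest without WT replicate 2, and 5 to 8 for CDK2-/- cells, lowest without CDK2-/- replicate 2.

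The E2F target genes are a list of 44 genes, most of them for replication, nucleotide synthesis and checkpoints, with cyclins, CDK1, RBL1 and the apoptosis gene APAF1 among the rest. More of them were called higher than lower in treated and knockout cells, and all calls in R50 cells were lower than WT. CCNE1, CCNE2, CCNA2, MYBL2 and RBL1 stand in this list and in one of the other lists as well. In treated cells 25 rose and 6 fell, 70.5% against 53.1% of all genes, with a median log2 difference of 0.19 against 0.04 over all genes. In CDK2-/- cells 17 were higher and 6 lower, 52.3% against 36.0%, with a median of 0.17 against 0.02. In R50 cells 0 were higher and 26 lower, 59.1% against 27.6%, with a median of -0.25 against -0.04. Over all genes, 1863 were higher and 2365 lower in R50 than in WT cells. CCNE2, which encodes cyclin E2, had the largest change of the list in the first pair, 2.59-fold in treated cells (log2 difference 1.37, adjusted p = 0.000111) and 2.77-fold in CDK2-/- cells (log2 difference 1.47, adjusted p = 7.83e-05). APAF1, ORC1 and CLSPN had log2 differences of -0.59, -0.54 and -0.48 in R50 against WT. After normexp background correction the APAF1 value was -0.18 and its call was lost. With 1 array left out, the call was lost in 5 of 8 fits for APAF1, 3 for ORC1 and 2 for CLSPN. Against CDK2-/- cells, on the same slide, R50 cells had 1 target higher and 35 lower, 81.8% against 40.9%, with a median of -0.41 against -0.06. The R50 count against WT was 7 without either WT array and up to 21 without another, and 5 with dim probes kept. The CDK2-/- count was 11 without WT replicate 1 or CDK2-/- replicate 2, up to 21, and 10 with dim probes kept. The total of 36 in R50 against CDK2-/- cells came to between 26 and 32.

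The E2F6 partners of the Polycomb complex PRC1.6 split in treated cells, where E2F6 itself rose at 2 of its 3 probes. Of 12 genes 4 were higher and 4 lower, 66.7% against 53.1% of all genes. MAX, a DNA-binding subunit, rose 1.61-fold (log2 difference 0.69, adjusted p = 0.000309), and RING1, a catalytic subunit, fell 1.78-fold (log2 difference -0.83, adjusted p = 0.00035). YAF2, an adaptor, fell 1.55-fold (log2 difference -0.63, adjusted p = 0.00102) and was higher in CDK2-/- cells (log2 difference 0.85, adjusted p = 0.000671). With the mean of all YAF2 probes in place of the brightest, the CDK2-/- value was 0.13 and the call was lost. In CDK2-/- cells 5 were higher and 0 lower, 41.7% against 36.0%. In R50 cells HDAC1 and HDAC2 were higher and PCGF6 lower, 25.0% against 27.6%. Neither share is far from that over all genes. The PCGF6 call was lost in all 8 fits with 1 array left out, that of HDAC2 in 4 and that of HDAC1 in 3. With 1 array left out the treated cells had 5 to 7 called genes, lowest without WT replicate 1 or WT+NU6102 replicate 1. CDK2-/- cells had 3 to 5, and R50 cells 0 to 2, lowest without either WT array or R50 replicate 1.

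**Figure D4:**
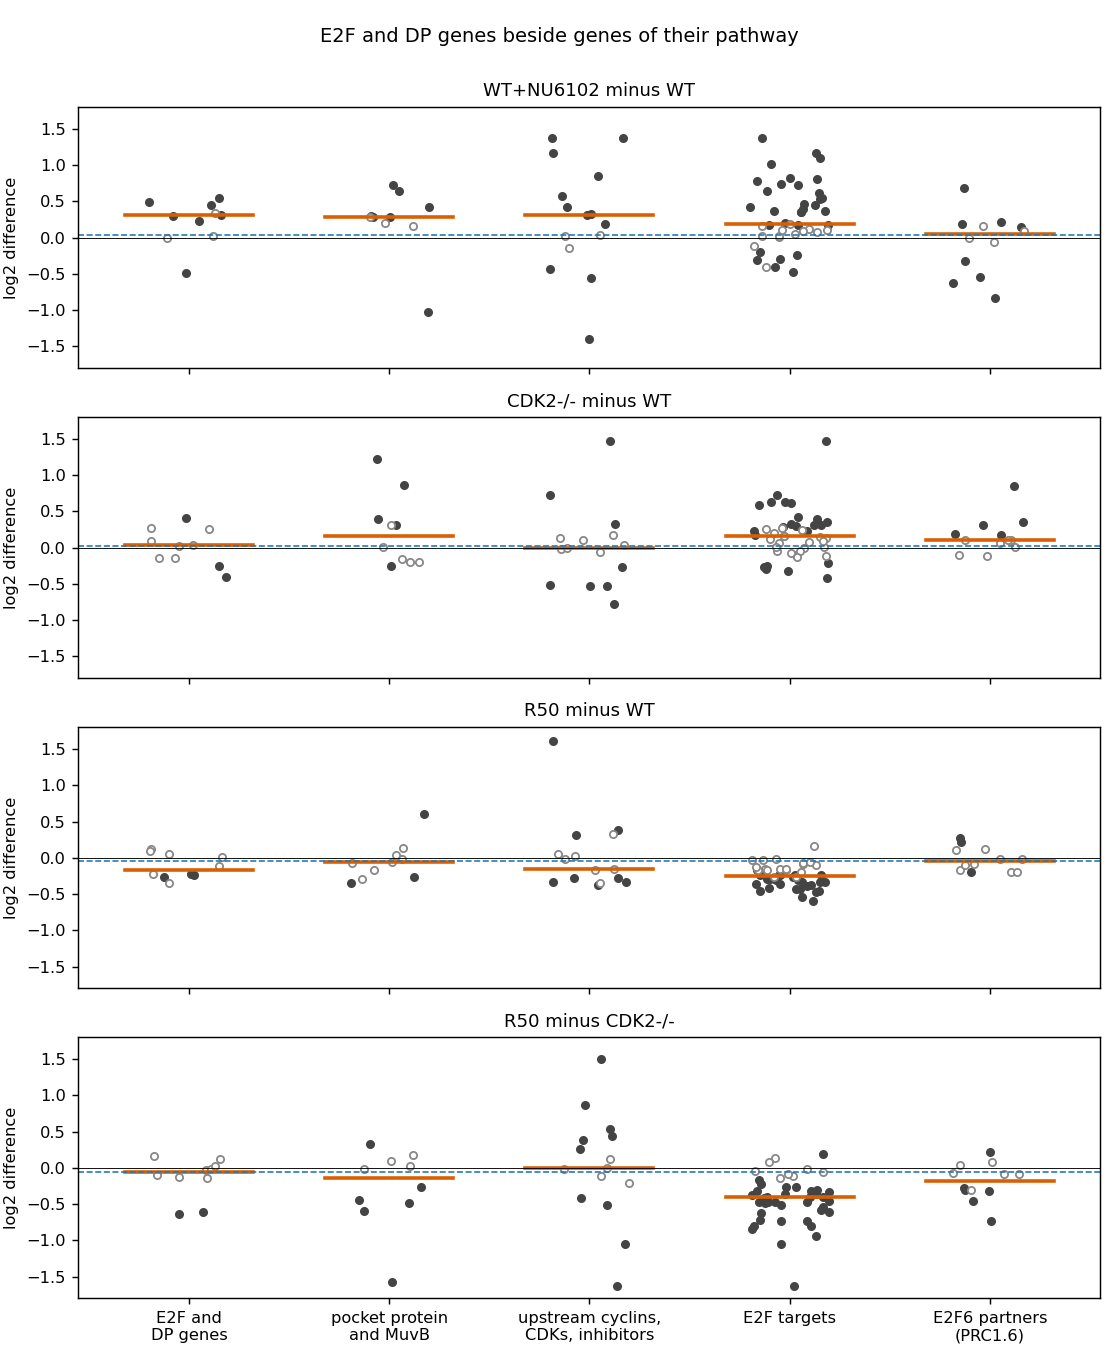
Log2 differences (vertical axis) for each gene of the E2F and DP family and of 4 lists from its pathway, in 4 comparisons. Filled points passed the test, orange bars are list medians and the dashed blue line is the median of all genes, and the median of the E2F targets is 0.19, 0.17, -0.25 and -0.41 from top to bottom.

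For the member with the widest range of group means in each role, the genes with the most similar profile were sought among 13907 other genes detected on every array. Likeness was the root mean square difference over the 8 arrays after each gene was centred on its own mean. Closest to E2F2 were PLEK2 (0.040), SLBP (0.043), which encodes the histone stem-loop binding protein, and PCNA-AS1 (0.049), a transcript antisense to the replication clamp gene. Closest to E2F8 were GREB1 (0.063), DNMT1 (0.077), the maintenance DNA methyltransferase, and CCNJ (0.082). Closest to TFDP2 were MDC1 (0.048), a DNA damage mediator, RGS9BP (0.054) and ABT1 (0.055). These genes were selected for the match, so the values describe the 8 arrays and carry no test.

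**Figure D5:**
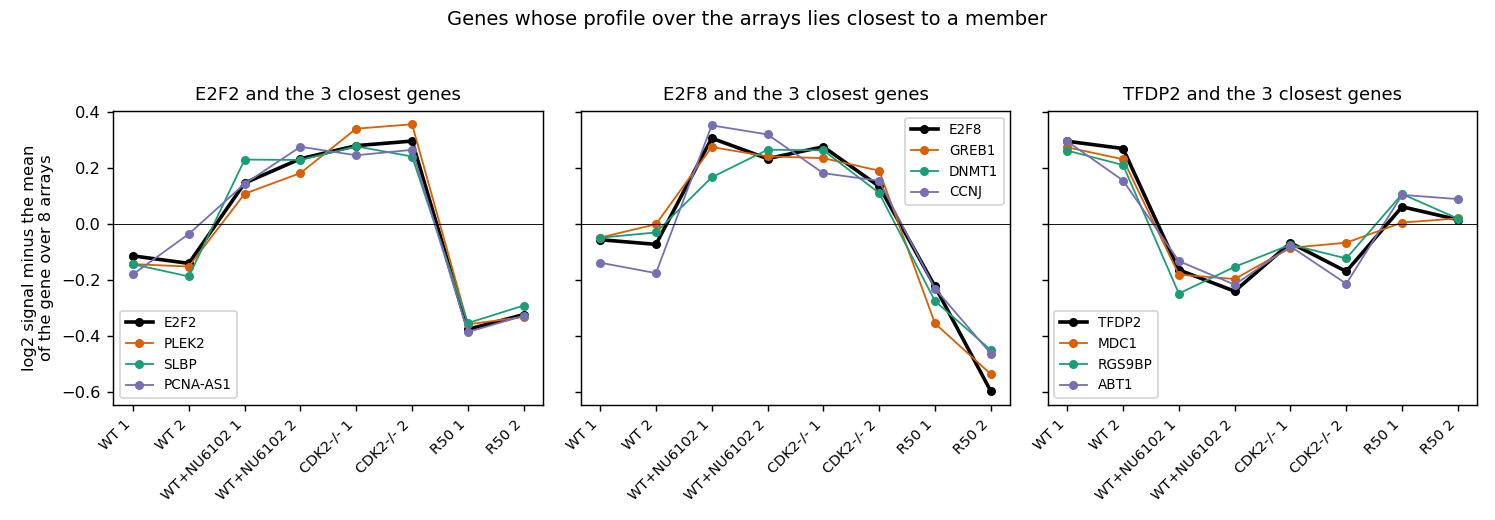
Log2 signal minus the mean of the gene over the 8 arrays (vertical axis) on each array, for E2F2, E2F8 and TFDP2 in black and the 3 genes closest to each in colour. The root mean square difference from the member is at most 0.049 for E2F2, 0.082 for E2F8 and 0.055 for TFDP2.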

How the data were processed

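Gene expression of 8 HCT-116 cultures was measured on one-colour Agilent arrays. The authors scanned them with Agilent Feature Extraction 11.5.1.1 and deposited a background-subtracted intensity per spot, not normalized between arrays. They also deposited processed log2 values of 28719 probes from GeneSpring GX, which served as an alternative.

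Control and outlier spots were left out, each log2 intensity was expressed relative to the 75th percentile of its array, and replicate spots were averaged. A probe was tested if any group had it well above background on its 2 arrays, which held for 28677 of 50599. Limma 3.58.1 in R 4.3.3 (with the data.table package, version 1.17.8) fitted the 4 groups together, and a difference was called at a two-sided Benjamini-Hochberg adjusted p under 0.05 over all tested probes, with 95% intervals from the same fit. The F-test threshold of 0.001 follows the study, whose own tests (ANOVA and a pairwise test) were run as alternatives. Other alternatives were normexp with an offset of 50, quantile normalization, other filters, a trended prior, the replicate number as a block, 1 slide only, an adjusted p under 0.01, a minimum log2 change of 1, the mean of a gene's probes and leaving out each array. The fit was tested on simulated data with few changed probes, and it missed most of the small changes there. A gene that was not called is therefore not shown to be unchanged. Plots and sequence searches used Python 3.11.15 with pandas 2.3.3, numpy 2.4.6 and matplotlib 3.10.9.

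Named genes are the 10 E2F and DP genes, CDK2, RB1, RBL1, RBL2 and, per list and comparison, the 3 largest changes among called genes detected on all arrays. Not all of these are printed. The members and lists were chosen with earlier results of these data known. Probe positions are those in the scanner files (hg19). Precision is limited by having 2 arrays per group.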

Additional observations from a re-analysis of the deposited data

How the results depend on the processing

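The members' differences were checked 1100 times under the alternatives, with the stricter thresholds left out. These are an adjusted p under 0.01 and a minimum log2 change of 1. Of the checks, 990 kept their side of the threshold, 78 lost the call and 32 gained one. Where either fit called the difference, its direction reversed in 0 checks. Many settings keep the log2 difference of the main fit, so its direction could not change there. Among these are the t-tests, the filters on dim probes, the trended prior, the replicate block, 1 slide only and leaving out an array outside the comparison. Direction was not compared where neither fit called it, and E2F3 in R50 against WT, for example, ran from -0.09 to 0.04. The order of the counts below is WT+NU6102, CDK2-/- and R50 against WT, then R50 against CDK2-/-, R50 against WT+NU6102 and CDK2-/- against WT+NU6102. Among the 10 E2F and DP genes, called in 7, 3, 3, 2, 9 and 4, a minimum log2 change of 1 left 0 in all 6. An adjusted p under 0.01 left 0 for R50 against WT and 1 for R50 against CDK2-/-, as did the absence of a filter on dim probes. The methods' t-test after Benjamini-Hochberg left 3, 1, 0, 1 and 5 in the first 5. Quantile normalization left 0 for R50 against WT, and arrays of 1 slide only left 1 for R50 against CDK2-/-. A trended prior gave 5, 5 and 4 for CDK2-/- against WT, R50 against WT and R50 against CDK2-/-. Among the 4 groups 2 genes passed the F-test, against 4 with normexp, 4 with only probes above background on all arrays, 7 with a trended prior, and 0 without a filter, with quantile normalization, with the replicate block and by the methods' ANOVA.

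In the first 4 comparisons a minimum log2 change of 1 left 1, 1, 0 and 1 pocket protein and MuvB genes, 4, 1, 1 and 3 upstream genes, 4, 1, 0 and 2 E2F targets and 0 PRC1.6 genes in each. Without a filter there were 4, 3, 1 and 3 pocket protein and MuvB genes, 2 upstream genes for R50 against WT, 10 and 5 E2F targets for CDK2-/- and R50 against WT, and 5, 3 and 0 PRC1.6 genes in the comparisons with WT. Quantile normalization left 4 pocket protein and MuvB genes in treated cells. Arrays of 1 slide only left 3 of them for R50 against CDK2-/- and 5 PRC1.6 genes in treated cells.

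Leaving out 1 array gave 5 to 8, 2 to 4, 0 to 1, 1 to 2, 7 to 9 and 4 to 4 E2F and DP genes, and 0 to 0 in the F-test. The lower value for R50 against CDK2-/- came without CDK2-/- replicate 1. It gave 4 to 7, 2 to 5, 1 to 2 and 3 to 6 pocket protein and MuvB genes, 10 to 12, 5 to 8, 3 to 7 and 8 to 10 upstream genes, 21 to 31, 11 to 21, 7 to 21 and 26 to 32 E2F targets, and 5 to 7, 3 to 5, 0 to 2 and 4 to 6 PRC1.6 genes. The cause of these changes was not tested. Deviations of same-numbered arrays correlated at -0.03 to 0.05, so no deviation shared by replicate number was seen. Whether same-numbered cultures were handled together cannot be read from these values. With the replicate block E2F4 in R50 against WT passed (adjusted p = 0.0489).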
